A study of Mus musculus with 19 samples.

Results

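The Toll-like receptor (TLR) and NF-κB pathway genes comprised 50 genes, chosen by symbol from the 54532 genes of a count table of mouse kidney RNA: 14 receptors, 2 genes of lipopolysaccharide recognition beside TLR4 (Ly96 and Lbp), 4 adaptors, 5 receptor-associated kinases, 6 TNF receptor-associated factors (TRAFs), 3 members of the TAK1 complex, 3 of the IκB kinase (IKK) complex, the 5 NF-κB subunits, 5 members of the IκB family and 3 ubiquitin editors. All 50 were found and all 50 passed the filter on low counts in every comparison. The rule used the symbols alone and no measured value.

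TLRs recognise microbial products and molecules released by injured cells. Those at the cell surface bind mostly lipids, lipoproteins and protein, while those in endosomes bind nucleic acids or, in the mouse, profilin-like protein. On binding, most of them recruit the adaptor MyD88, which assembles IRAK kinases, activates the ubiquitin ligase TRAF6 and, through TAK1, the IKK complex; IKK marks IκBα for degradation, and NF-κB dimers then enter the nucleus. Several inhibitors of the pathway, among them IκBα and A20, are themselves products of NF-κB targets. In the kidney the pathway operates both in macrophages and in tubular epithelium, and CD5L is a protein that macrophages secrete.

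The kidneys came from male mice of 8 to 9 weeks on a C57BL/6J background whose left ureter had been ligated and cut (unilateral ureteral obstruction, UUO), and they were taken on day 12 after heparin perfusion. The 4 groups were wild-type mice given phosphate-buffered saline (WT PBS, n = 5), wild-type mice given recombinant CD5L (WT rCD5L, n = 5), CD5L-deficient mice given PBS (CD5L KO PBS, n = 4) and CD5L-deficient mice given the recombinant protein (CD5L KO rCD5L, n = 5). Injections were daily and intraperitoneal, with 0.5 mg of rCD5L per mouse, a protein purified from a hamster ovary cell line. All 19 kidneys were obstructed, so no comparison involves unobstructed tissue, and RNA of the whole kidney was sequenced, so fewer cells of a type and less RNA per cell cannot be told apart.

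Total counts ran from 17917491 to 23847090 per kidney. Cd5l itself had 0 counts in every CD5L KO kidney and 3 to 15 counts in the WT kidneys. A single library stood apart: CD5L KO rCD5L replicate 4 had a TMM scaling factor of 0.690, against 0.889 to 1.07 in the other 18, proximal tubule markers (Slc34a1, Lrp2 and 4 others) summing to 12908 CPM (counts scaled to a common library size) against at most 2145 elsewhere, and macrophage markers (Adgre1, C1qa and 8 others) summing to 817 CPM against at least 2003 elsewhere. The 50 genes summed to 1795 CPM in that kidney and to between 2168 and 2493 CPM in the others. It held the lowest value of all 19 kidneys for 33 of the 50 genes and the highest for 7. CD5L KO rCD5L replicate 3 held the lowest for 7 and the highest for 11, and no other kidney held an extreme for more than 6. In the comparisons that include this group, counts by p and medians of the 50 genes are therefore also given without replicate 4 and without replicates 3 and 4. The values of the named genes are given likewise, but in the interaction only without replicates 3 and 4.

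**Figure D1:**
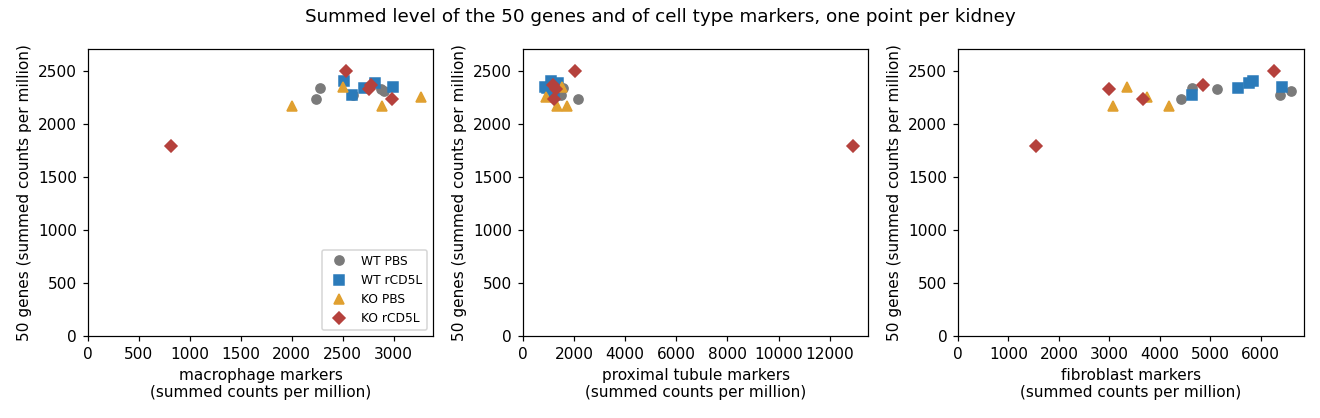
Summed level of the 50 genes (vertical axis, CPM) against the summed level of macrophage, proximal tubule and fibroblast markers (horizontal axes, CPM), 1 point per kidney, with symbols for the 4 groups. A single CD5L KO rCD5L kidney lies alone, at 1795 CPM of the 50 genes, 817 CPM of macrophage markers and 12908 CPM of proximal tubule markers, and the other 18 lie between 2168 and 2493 CPM.

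Promoter sequences of 39 of the 50 genes were found in RefSeq's annotation of GRCm38.p6, each 300 bases long, from 250 before to 50 after a transcription start. The letters GGGNNTTTCC, a core form of the NF-κB binding motif, were searched on both strands. They occurred in the promoters of 9 of these 39 genes (Cyld, Map3k7, Nfkb2, Nfkbia, Rel, Tlr3, Tnfaip3, Traf2 and Traf3), which is 23.1%, against 1.89% of all 27025 genes with a sequence. Such a match describes letters only. The promoters of 3 genes that act back on the pathway are shown with the matching letters in capitals: Nfkbia (chr12:55492598-55492897, minus strand), which encodes IκBα; Tnfaip3 (chr10:19015361-19015660, minus strand), which encodes A20; and Nfkb2 (chr19:46304487-46304786, plus strand), which encodes the p100 precursor of p52.
Nfkbia: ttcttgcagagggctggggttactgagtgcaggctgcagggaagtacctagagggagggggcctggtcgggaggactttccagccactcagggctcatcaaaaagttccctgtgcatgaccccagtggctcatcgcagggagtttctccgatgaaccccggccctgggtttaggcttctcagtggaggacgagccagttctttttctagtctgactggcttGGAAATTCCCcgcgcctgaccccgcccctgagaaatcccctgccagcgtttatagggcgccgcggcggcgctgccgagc
Tnfaip3: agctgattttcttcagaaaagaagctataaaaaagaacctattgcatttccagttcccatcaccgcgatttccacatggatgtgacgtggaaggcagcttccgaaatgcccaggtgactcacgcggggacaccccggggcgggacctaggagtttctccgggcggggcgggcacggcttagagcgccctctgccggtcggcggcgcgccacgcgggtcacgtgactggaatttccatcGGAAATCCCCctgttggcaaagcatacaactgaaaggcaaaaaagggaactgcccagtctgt
Nfkb2: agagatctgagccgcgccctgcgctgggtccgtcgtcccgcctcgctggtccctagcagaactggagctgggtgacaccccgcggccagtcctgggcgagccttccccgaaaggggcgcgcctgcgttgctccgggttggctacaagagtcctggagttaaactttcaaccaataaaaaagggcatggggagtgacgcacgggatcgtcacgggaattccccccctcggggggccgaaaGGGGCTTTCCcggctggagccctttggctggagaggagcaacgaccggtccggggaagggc
Traf6 (chr2:101678170-101678469, plus strand) and Tlr9 (chr9:106222348-106222647, plus strand) are shown because the results by genotype and by rCD5L turn on them. Neither window holds these letters.
Traf6: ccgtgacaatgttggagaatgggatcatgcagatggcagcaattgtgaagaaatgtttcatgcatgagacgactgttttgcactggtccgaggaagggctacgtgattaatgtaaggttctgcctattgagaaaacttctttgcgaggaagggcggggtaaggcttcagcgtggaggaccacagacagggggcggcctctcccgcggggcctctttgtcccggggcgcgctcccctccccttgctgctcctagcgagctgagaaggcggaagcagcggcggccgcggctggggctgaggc
Tlr9: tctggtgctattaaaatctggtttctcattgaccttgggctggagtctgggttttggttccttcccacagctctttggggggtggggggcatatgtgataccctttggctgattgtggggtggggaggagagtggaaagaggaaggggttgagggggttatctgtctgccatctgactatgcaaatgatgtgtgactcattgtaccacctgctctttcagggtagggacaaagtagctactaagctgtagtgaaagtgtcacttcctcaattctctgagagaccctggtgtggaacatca

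The 50 genes spanned a wide range of levels per length, here in FPKM, which divides fragments by gene length and library size and was averaged over the 19 kidneys. Of these, 3 exceeded 20 FPKM, 13 lay between 10 and 20, 10 between 5 and 10, 19 between 1 and 5, and 5 were under 1. At the top was Nfkbia, at 65.6 ± 2.67 FPKM (SD, n = 5) in WT PBS kidneys. Rela, the p65 subunit, followed at 34.7 ± 1.07 FPKM (SD, n = 5), and Nfkb2 at 27.5 ± 0.786 FPKM (SD, n = 5); in WT PBS kidneys the ranges of these 3 did not overlap. Rel, the subunit best known in lymphocytes, was the least abundant subunit at 1.94 ± 0.179 FPKM (SD, n = 5).

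Among the receptors, Tlr2, which recognises lipoproteins together with Tlr1 or Tlr6, had the highest level per length, at 16.7 ± 2.65 FPKM (SD, n = 5). The other receptors lay well below it. Nod1, a cytosolic receptor for peptidoglycan fragments, was at 5.16 ± 0.386 FPKM (SD, n = 5), and Tlr3, the receptor of double-stranded RNA, at 4.38 ± 0.262 FPKM (SD, n = 5). Tlr13, which recognises bacterial ribosomal RNA, was at 4.36 ± 0.617 FPKM (SD, n = 5), Tlr4, the lipopolysaccharide receptor, at 3.67 ± 0.398 FPKM (SD, n = 5), and Tlr7, which senses single-stranded RNA, at 3.42 ± 0.376 FPKM (SD, n = 5); their values overlapped in WT PBS kidneys. Tlr9, the receptor of unmethylated CpG DNA, was at 2.32 ± 0.248 FPKM (SD, n = 5). Tlr6, Tlr11, Nod2 and Tlr5 were at under 1 FPKM in this group, with Tlr5, the flagellin receptor, lowest of all 50 at 0.396 ± 0.0733 FPKM (SD, n = 5).

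Of the signalling components, Traf4 had the highest level per length in this group after those 3 and Tlr2, at 16.5 ± 1.24 FPKM (SD, n = 5), and Myd88, Irak1, Tab2 and the IKKα gene Chuk were at 13.7 to 15.2 FPKM. Traf6 was lower, at 4.53 ± 0.140 FPKM (SD, n = 5), and so was Ikbkb, which encodes IKKβ, at 5.24 ± 0.255 FPKM (SD, n = 5). The adaptor genes spanned a wide range: Myd88 was at 15.2 ± 0.669 FPKM (SD, n = 5), Ticam1, which encodes TRIF, at 7.25 ± 0.663 FPKM (SD, n = 5), Tirap at 3.42 ± 0.163 FPKM (SD, n = 5) and Ticam2, which encodes TRAM, at 0.568 ± 0.151 FPKM (SD, n = 5). The loci of Myd88, Ticam2 and Tirap overlap those of the expressed genes Acaa1a, Tmed7 and Srpr, and those of Irak4, Ikbkg and Nfkb2 overlap Twf1, G6pdx and Psd; how reads in the shared stretches were counted is not given in the sources used here, so the levels of these members are uncertain.

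Levels of the remaining genes are given as means over the 5 WT PBS kidneys. Among the kinases that receptors recruit, Irak2 was at 8.46, Irak4 at 4.44, Irak3 at 3.57 and Ripk2 at 3.38 FPKM. The TRAFs other than Traf4 and Traf6 ran from 2.27 FPKM for Traf1 through Traf5 (2.68) and Traf3 (5.32) to Traf2 (8.61). In the TAK1 complex, Tab1 was at 9.54 and the kinase gene Map3k7 at 8.56 FPKM, and NEMO's gene Ikbkg was at 6.17 FPKM. Of the subunits, Relb, of the alternative pathway, was at 14.1 and Nfkb1 at 7.89 FPKM.

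The IκB family genes other than Nfkbia lay close together, with Nfkbiz at 15.0, Bcl3 and Nfkbie both at 12.6 and Nfkbib at 12.1 FPKM. The ubiquitin editors, which restrain the pathway, were at 14.1 for Tnip1, 6.11 for Tnfaip3 and 4.39 FPKM for Cyld. Lbp was at 14.8 FPKM and Ly96 at 4.33 FPKM. Receptor genes not yet named were Tlr1 at 3.18, Tlr12 at 3.15 and Tlr8 at 2.74 FPKM.

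**Figure D2:**
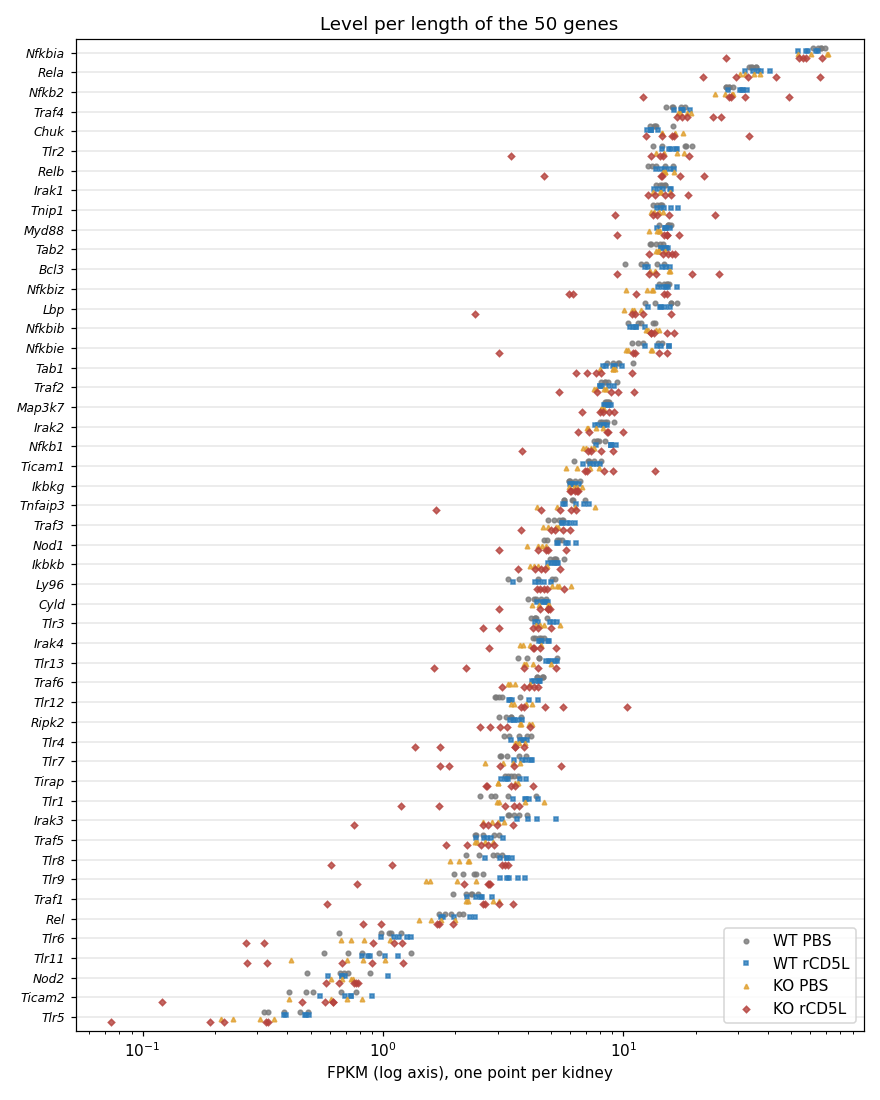
FPKM of each of the 50 genes (horizontal log axis) in every kidney, genes ordered by their mean over 19 kidneys, with symbols for the 4 groups. Nfkbia, Rela and Nfkb2 lie highest and Tlr5 lowest, and for most genes the widest spread is that of the CD5L KO rCD5L kidneys.

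The first comparison addressed how loss of CD5L altered the pathway in obstructed kidneys, with CD5L KO PBS set against WT PBS. At an adjusted p under 0.05, 4 of the 50 genes were called, all of them lower in CD5L KO kidneys: Lbp, Traf6, Ikbkb and Nfkbiz. This is 8% of the genes, against 10.5% of all 17579 genes tested that were called and 5.40% that were called lower, so the share is near the background. No receptor, adaptor, receptor-associated kinase or NF-κB subunit was called by edgeR. DESeq2 called 6 of the 50 (12%), against 17.8% of the genes it gave an adjusted p: the same 4, the receptor gene Tlr8 and the kinase gene Irak3. Differences were small throughout: 40 of the 50 log2 fold changes lay within 0.25 of 0, 32 were negative, and the median was -0.04, beside -0.005 over all genes tested.

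Lbp (chr2:158306493-158332852) encodes the lipopolysaccharide binding protein, which hands lipopolysaccharide to CD14 and TLR4. Its values were 92.8, 98.5, 72.6, 93.1 and 80.0 CPM in the 5 WT PBS kidneys and 66.2, 71.1, 64.7 and 60.1 CPM in the 4 CD5L KO PBS kidneys. All CD5L KO kidneys lay below all WT kidneys, with a log2 fold change of -0.42, SE 0.0892, adjusted p = 0.0129. Ly96, the co-receptor MD-2 that binds lipopolysaccharide beside TLR4, was at 5.40 ± 1.03 (SD, n = 5) CPM in WT PBS and 6.91 ± 0.564 (SD, n = 4) CPM in CD5L KO PBS kidneys and was not called.

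Traf6 (chr2:101678429-101701669) encodes the ubiquitin ligase that carries the signal of MyD88 and the IRAKs. In WT PBS kidneys it stood at 44.5, 44.4, 42.0, 44.6 and 42.5 CPM, and in CD5L KO PBS kidneys at 32.4, 34.7, 32.9 and 39.6 CPM. The groups did not overlap. The log2 fold change was -0.33, SE 0.0670, adjusted p = 0.0112. The other TRAF genes, Traf1 to Traf5, were not called.

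Ikbkb (chr8:22659212-22706589) encodes IKKβ, the kinase that phosphorylates IκBα in this pathway. It measured 131, 122, 115, 121 and 121 CPM in WT PBS and 99.9, 105, 95.9 and 113 CPM in CD5L KO PBS kidneys, without overlap, and the log2 fold change was -0.25, SE 0.0605, adjusted p = 0.0241. Its gene model of 19078 bases is long, against a median of 3808 for all genes tested, and log2 fold changes in this comparison ran downward with gene length (Spearman's rho -0.28 over 17579 genes, which share the same kidneys). With a length trend removed per kidney, Ikbkb was no longer called (log2 fold change -0.11, adjusted p = 0.241). Chuk, the partner kinase IKKα, was at 86.5 ± 7.91 (SD, n = 5) CPM in WT PBS and 99.3 ± 9.69 (SD, n = 4) CPM in CD5L KO PBS kidneys, and Ikbkg, the scaffold NEMO, at 61.0 ± 2.95 (SD, n = 5) and 63.6 ± 3.60 (SD, n = 4) CPM; neither was called. Chuk was called, and higher in CD5L KO kidneys, without WT PBS replicate 3 and with the gene length offset and replicate block together.

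Nfkbiz (chr16:55811375-55838899) encodes IκBζ, a nuclear IκB protein that promotes transcription of a subset of NF-κB targets. Its values were 92.8, 93.4, 94.7, 86.4 and 91.2 CPM in WT PBS kidneys and 81.8, 78.5, 63.3 and 82.4 CPM in CD5L KO PBS kidneys, again without overlap, with a log2 fold change of -0.27, SE 0.0742, adjusted p = 0.0382. This call was the least stable of the 4: the gene was called in 5 of 18 alternative analyses, Ikbkb in 10, and Lbp and Traf6 in 17 each. When single kidneys were left out in turn, the adjusted p went up to 0.0827 for Nfkbiz and 0.0715 for Ikbkb, and up to 0.0400 for Lbp and 0.0382 for Traf6. In a single fit over all 19 kidneys none of the 4 was called, and 12 genes were called in all.

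**Figure D3:**
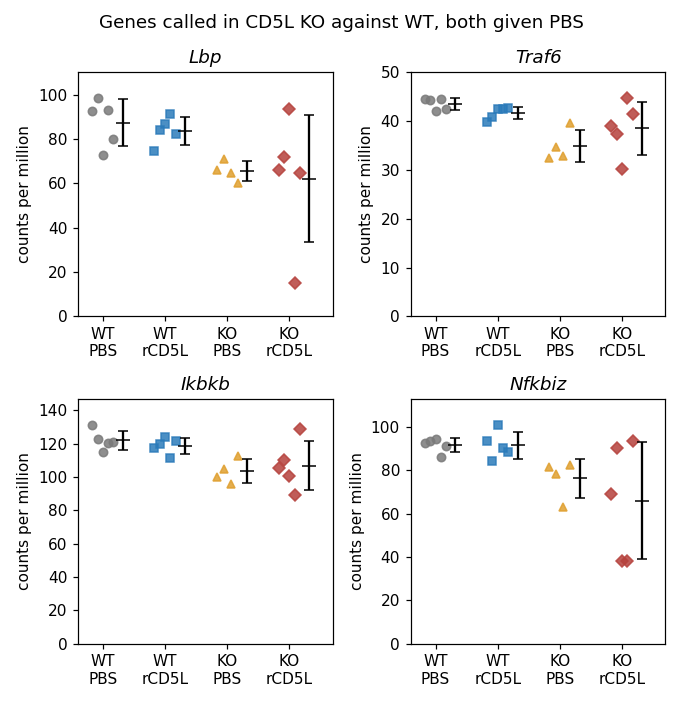
CPM of Lbp, Traf6, Ikbkb and Nfkbiz (vertical axes from 0) in each kidney of the 4 groups, with the mean ± SD beside the points. For each gene all 4 CD5L KO PBS kidneys lie below all 5 WT PBS kidneys, while the CD5L KO rCD5L kidneys spread widely, with Lbp from 15.0 to 93.6 CPM.

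The next 4 genes by unadjusted p were not called by edgeR. Irak3, which encodes the inhibitory kinase IRAK-M, was at 17.8, 16.5, 14.9, 14.9 and 15.8 CPM in WT PBS and 14.6, 11.9, 13.7 and 12.9 CPM in CD5L KO PBS kidneys, without overlap (log2 fold change -0.28, SE 0.0901, adjusted p = 0.0707). Its locus overlaps Tmbim4 on the opposite strand, and without knowledge of strand in the counting the reads of both cannot be told apart. Tlr8, an endosomal sensor of RNA, had a log2 fold change of -0.35, SE 0.118, adjusted p = 0.0787, Tlr12, a profilin receptor, of 0.27, SE 0.1002, adjusted p = 0.112, and Nod1 of -0.20, SE 0.0768, adjusted p = 0.113; for these 3 the groups overlapped. Tlr8 was called in 4 of 18 alternative analyses, among them DESeq2 (adjusted p = 0.0425) and the replicate block (adjusted p = 0.0344), and Irak3 in DESeq2 alone (adjusted p = 0.0461). Tlr12 was called once, without WT PBS replicate 1 (adjusted p = 0.0489), and Nod1 in none. By unadjusted p under 0.05 there were 15 genes, 11 lower and 4 higher, which is 30% against 26.6% of all genes. Between groups 6 genes did not overlap, all lower (the 4 called genes, Irak3 and Map3k7), which is 12% against 14.1% of all genes in either direction and 6.87% in that direction.

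By role, the log2 fold changes in CD5L KO against WT given PBS ran from -0.51 to 0.21 for the 5 cell surface receptors, from -0.35 to 0.27 for the 7 endosomal receptors and from -0.13 to 0.18 for the 4 adaptors. They ran from -0.28 to 0.23 for the receptor-associated kinases, from -0.33 to 0.21 for the TRAFs and from -0.10 to 0.06 for the TAK1 complex. The NF-κB subunits lay between -0.19 and 0.12, with 4 of 5 negative, and the ubiquitin editors between -0.04 and 0.08. Each of these roles held values on both sides of 0.

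Markers of other cell types moved in the same comparison. Of the 7 fibroblast markers 6 were called lower, with Col3a1 at a log2 fold change of -0.86 (SE 0.145, adjusted p = 0.00643) and Pdgfra at -0.50 (SE 0.0695, adjusted p = 0.00470), and their sum was 3063 to 4184 CPM in CD5L KO PBS against 4419 to 6594 CPM in WT PBS kidneys. Of the 5 endothelial markers 3 were called lower, among them Pecam1 at -0.38 (SE 0.0649, adjusted p = 0.00652). Of the 10 macrophage markers 1 was called lower, Csf1r at -0.47 (SE 0.131, adjusted p = 0.0386), and their sum overlapped, at 2003 to 3265 CPM in CD5L KO PBS and 2235 to 2908 CPM in WT PBS kidneys. None of the markers of neutrophils, dendritic cells, T cells, B cells, proximal tubule, thick limb or urothelium was called. The 3 urothelium markers were not called but had positive log2 fold changes with a median of 0.82, and their sum did not overlap, at 128 to 218 CPM in CD5L KO PBS against 15.0 to 115 CPM in WT PBS kidneys. The part of these cell types in the lower levels of Lbp, Traf6, Ikbkb and Nfkbiz was not tested.

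Among 45 other genes of the pathway, 2 (4.44%) were called, and 2 of 39 NF-κB target genes (5.13%), against the 10.5% of all genes. The 2 pathway genes were higher in CD5L KO kidneys: Cd14, the lipopolysaccharide co-receptor to which LBP delivers its ligand, at a log2 fold change of 0.23 (SE 0.0606, adjusted p = 0.0309), and Cd36, a scavenger receptor that can act with TLR2 and TLR6, at 0.42 (SE 0.0973, adjusted p = 0.0191). Of the target genes, Ccl2, the monocyte chemoattractant, was higher at 0.67 (SE 0.108, adjusted p = 0.00566), and Selp, the endothelial adhesion molecule P-selectin, was lower at -0.76 (SE 0.208, adjusted p = 0.0364). The other 37 targets were not called, and the median over the 39 was 0.06.

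The same contrast of genotypes was made between mice given rCD5L. With edgeR none of the 50 genes was called, and 0% of the 17360 genes tested were; DESeq2 called 64 genes, none of them among the 50. At an unadjusted p under 0.05 there were 7 of the 50 genes, 5 lower and 2 higher, which is 14% against 17.8% of all genes. Without CD5L KO rCD5L replicate 4 there were 4 (8%, against 16.2%) and without replicates 3 and 4 there were 9 (18%, against 21.5%). Leaving out any single WT rCD5L kidney left 2 to 4 genes (4% to 8%, against 11.2% to 13.9% of all genes). Leaving out CD5L KO rCD5L replicate 2 gave 11 (22%, against 22.0%). The spread was wider here, with a biological coefficient of variation of 27.0% against 12.6% between the groups given PBS. Log2 fold changes were negative for 36 of the 50 genes, with a median of -0.15 beside -0.01 over all genes, and without CD5L KO rCD5L replicate 4 for 34, with a median of -0.08. Without replicates 3 and 4 they were negative for 31, with a median of -0.03. In the fit over all 19 kidneys Nfkbib and Tlr5 were called (adjusted p = 0.0364 and 0.0477), which is 4% of the 50 genes against 7.00% of all genes in that fit.

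Between these groups 3 genes did not overlap, 6% against 7.62% of all genes. Nfkbib, which encodes the inhibitor IκBβ, was at 29.7, 32.4, 27.8, 29.3 and 28.7 CPM in WT rCD5L and 34.6, 34.7, 43.0, 42.1 and 35.8 CPM in CD5L KO rCD5L kidneys (log2 fold change 0.35, SE 0.0997, adjusted p = 0.259). Its locus overlaps Sirt2. Tlr5 was at 2.77, 2.25, 2.28, 2.83 and 2.74 CPM in WT rCD5L and at 1.11, 1.95, 1.28, 0.454 and 1.93 CPM in CD5L KO rCD5L kidneys, at the low end of measurable levels (log2 fold change -0.92, SE 0.315, adjusted p = 0.259). Tlr9 was at 13.8, 14.2, 12.9, 16.3 and 15.3 CPM in WT rCD5L and 11.6, 11.8, 11.9, 3.48 and 9.36 CPM in CD5L KO rCD5L kidneys (log2 fold change -0.60, SE 0.263, adjusted p = 0.271). All 5 CD5L KO kidneys lay below all 5 WT kidneys for Tlr5 and Tlr9, and above them for Nfkbib. Without CD5L KO rCD5L replicate 4 the log2 fold changes were 0.31 for Nfkbib, -0.73 for Tlr5 and -0.39 for Tlr9, and without replicates 3 and 4 they were 0.23, -0.64 and -0.42; none of the 3 was called in either.

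The other 5 of the 8 genes with the smallest p were Tlr12 (log2 fold change 0.63, SE 0.272, adjusted p = 0.269), Irak3 (-0.68, SE 0.304, adjusted p = 0.275), Nod1 (-0.31, SE 0.141, adjusted p = 0.278), Rel (-0.49, SE 0.225, adjusted p = 0.280) and Chuk (0.52, SE 0.247, adjusted p = 0.290). Chuk shows how far 1 kidney carried these values: CD5L KO rCD5L replicate 4 was at 216 CPM, the other 4 at 77.2 to 102 CPM, and WT rCD5L kidneys at 77.0 to 86.3 CPM. Without replicate 4 the log2 fold changes were 0.27 for Tlr12, -0.46 for Irak3, -0.20 for Nod1, -0.36 for Rel and 0.17 for Chuk, none of them called, and without replicates 3 and 4 they were 0.15, -0.39, -0.28, -0.19 and 0.25.

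Beside the values of these 8 genes stand the proximal tubule markers, all 6 higher in CD5L KO rCD5L kidneys with a median log2 fold change of 1.59, the macrophage markers, all 10 lower with a median of -0.26, and the fibroblast markers, all 7 lower with a median of -0.44, none of them called. Without replicate 4 these were 4 of 6 proximal tubule markers higher (median 0.38), 5 of 10 macrophage markers lower (median -0.05) and 6 of 7 fibroblast markers lower (median -0.28), again with none called; without replicates 3 and 4 the medians of these 3 lists were 0.13, -0.05 and -0.55. T cell markers were lower in all 6 cases (median -0.35), dendritic cell markers in all 5 (median -0.33), and urothelium markers were higher in all 3 (median 0.35), with medians of -0.07, -0.03 and 0.62 without replicates 3 and 4. Endothelial markers were lower in 4 of 5 cases (median -0.25), in all 5 without replicate 4 (median -0.21) and in 4 without replicates 3 and 4 (median -0.30). The part of these cell types was not tested.

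With replicates 3 and 4 of CD5L KO rCD5L both left out, 3.58% of 18012 genes were called, among them 2 of the 50 (4%). These kidneys were chosen after the values were seen, in part by their extremes among the 50 genes. Replicate 4 held the lowest Lbp and the highest Chuk value of all 19 kidneys. The p-values of the 50 genes in this setting are therefore not independent of that choice. Lbp was lower in CD5L KO kidneys (log2 fold change -0.32, SE 0.0719, adjusted p = 0.0335) and Chuk was higher (0.25, SE 0.0605, adjusted p = 0.0434). For Lbp, the 3 remaining CD5L KO rCD5L kidneys were at 66.1, 71.9 and 64.5 CPM and the WT rCD5L kidneys at 74.4 to 91.3 CPM. Replicates 3 and 4, at 93.6 and 15.0 CPM, lay on either side of all WT rCD5L kidneys. With the same 2 kidneys left out, 3 of 5 endothelial, 2 of 7 fibroblast, 1 of 6 proximal tubule and 1 of 2 thick limb markers were called, and their part was not tested. In the 2 genotype comparisons, which share no kidney, 27 of the 50 genes were lower in CD5L KO in both and 9 were higher in both. That is 54% and 18%, against 34.7% and 32.8% of all genes tested in both. Without CD5L KO rCD5L replicate 4 these counts were 25 (50%) and 9 (18%), against 34.1% and 32.8%, and without replicates 3 and 4 they were 23 (46%) and 10 (20%), against 36.3% and 35.5%. Both comparisons have the same downward run with gene length (rho -0.28 in each). The median length of the 50 gene models was 4358 bases, against 3808 and 3847.5 for all genes tested given PBS and given rCD5L. With the length trend removed per kidney, 31 of the 50 were lower in CD5L KO given PBS and 30 given rCD5L. The part of gene length in the shared direction was not tested.

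**Figure D4:**
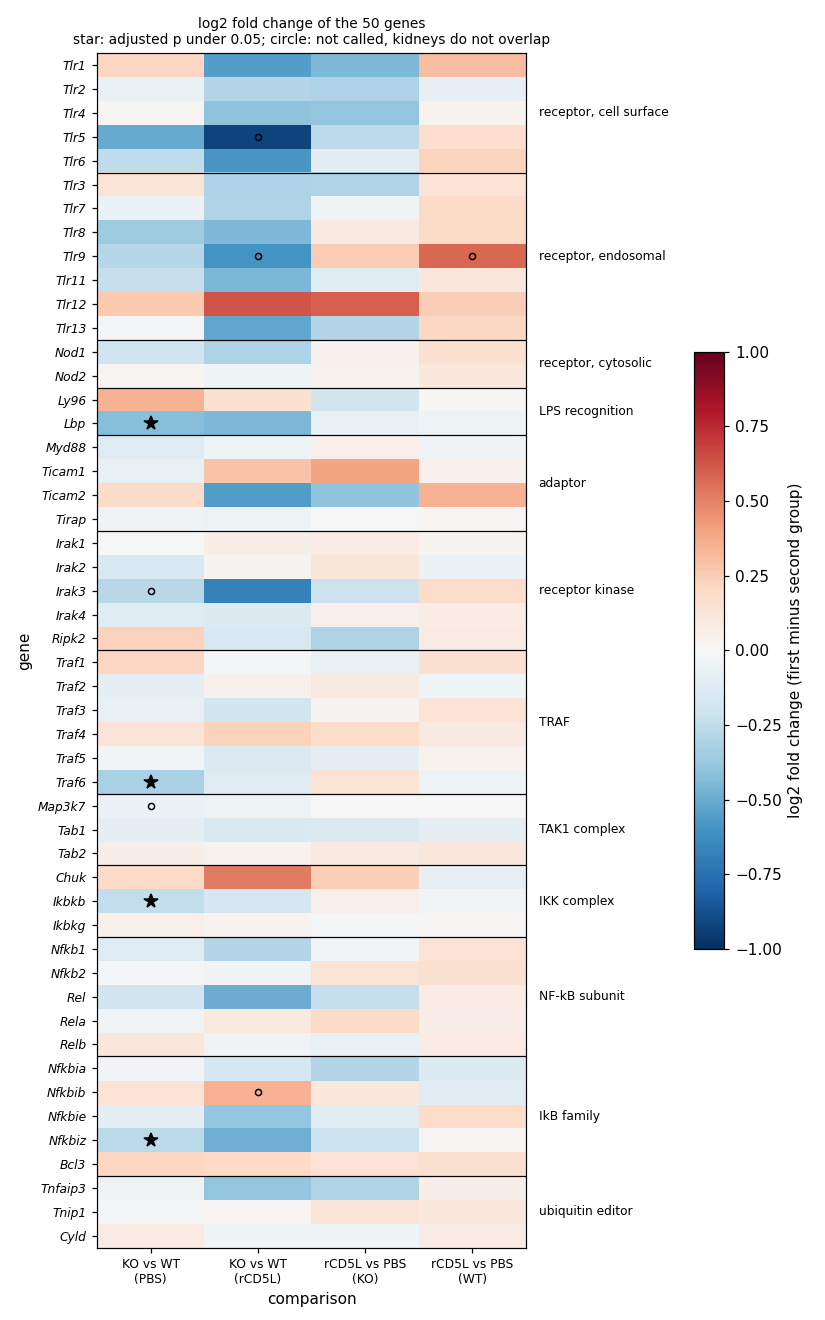
Log2 fold change (colour, first group minus second) of the 50 genes in rows, grouped by role, in the 4 pairwise comparisons in columns. Stars mark the 4 genes called, all in CD5L KO against WT given PBS, and circles mark genes that were not called but whose kidneys did not overlap between the groups, such as Tlr9 given rCD5L.

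Treatment with rCD5L was compared with PBS within each genotype. In WT mice edgeR called none of the 50 genes and 0% of 17455 genes, while DESeq2 called 508 genes (3.82% of those with an adjusted p), of which Tlr9 was one of the 50. No gene in this comparison had a smaller adjusted p than Tlr9 (chr9:106222598-106226883). Such a minimum can be shared by several genes, so Tlr9 need not rank first alone. It stood at 10.1, 10.4, 8.41, 11.0 and 9.18 CPM in WT PBS kidneys and at 13.8, 14.2, 12.9, 16.3 and 15.3 CPM in WT rCD5L kidneys. All 5 treated kidneys lay above all 5 controls, and the log2 fold change was 0.57, SE 0.0974, adjusted p = 0.0952. It was the only one of the 50 genes without overlap, 2% against 3.63% of all genes. By DESeq2 its adjusted p was 0.000257, without the filter on low counts 0.0185 by edgeR, and without WT PBS replicate 1 0.0466 by edgeR. In the other 16 of 19 alternatives it was not called, with adjusted p = 0.9998 in the fit over all 19 kidneys, where 0 of 18454 genes were called. The WT rCD5L kidneys serve both here and in the genotype comparison above, so the 2 results on Tlr9 are not independent.

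The 7 endosomal receptors all had higher means in WT rCD5L than in WT PBS kidneys, with log2 fold changes from 0.11 to 0.57 and none called. Tlr12 was at 0.24, SE 0.103, adjusted p = 0.263 and Tlr13 at 0.21, SE 0.0876, adjusted p = 0.264, and both overlapped. Tlr1, at the cell surface, was at 0.31, SE 0.126, adjusted p = 0.245. The 5 NF-κB subunits also had positive log2 fold changes, from 0.06 to 0.15, of which Nfkb2 was at 0.15, SE 0.0507, adjusted p = 0.163 and Nfkb1, which encodes p105 and p50, at 0.15, SE 0.0535, adjusted p = 0.201. Nfkb2 measured 108, 107, 115, 110.4 and 111 CPM in WT PBS and 109, 124, 121, 124 and 129 CPM in WT rCD5L kidneys, where 4 of the 5 treated kidneys exceeded every control.

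Nfkbia went the other way. It measured 135, 127, 131, 121 and 131 CPM in WT PBS and 113, 124, 114, 103 and 125 CPM in WT rCD5L kidneys, with overlap (log2 fold change -0.14, SE 0.0572, adjusted p = 0.248). Traf3, which restrains the alternative NF-κB pathway, was at 0.14, SE 0.0551, adjusted p = 0.243. In all, 39 of the 50 log2 fold changes were positive, 78% against 51.3% of all genes, and the median was 0.08 beside 0.005. At an unadjusted p under 0.05 there were 11 genes, 10 higher and 1 lower, which is 22% against 16.0% of all genes. Single kidneys moved this count. It was 6 (12%, against 12.8% of all genes) without WT rCD5L replicate 4 and 7 (14%, against 14.0%) without WT PBS replicate 3. Without any other single kidney it was 8 to 12 (16% to 24%, against 12.5% to 17.1%). Log2 fold changes ran upward with gene length in this comparison (rho 0.24), and with the length trend removed 35 of the 50 were positive with the same median of 0.08. T cell markers were higher in all 6 cases (median log2 fold change 0.50) and macrophage markers in 8 of 10 (median 0.06). Proximal tubule markers were lower in all 6 cases (median -0.38, 3 at an unadjusted p under 0.05) and endothelial markers in 4 of 5 (median -0.15, 3 at an unadjusted p under 0.05). No marker was called, and their part was not tested.

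**Figure D5:**
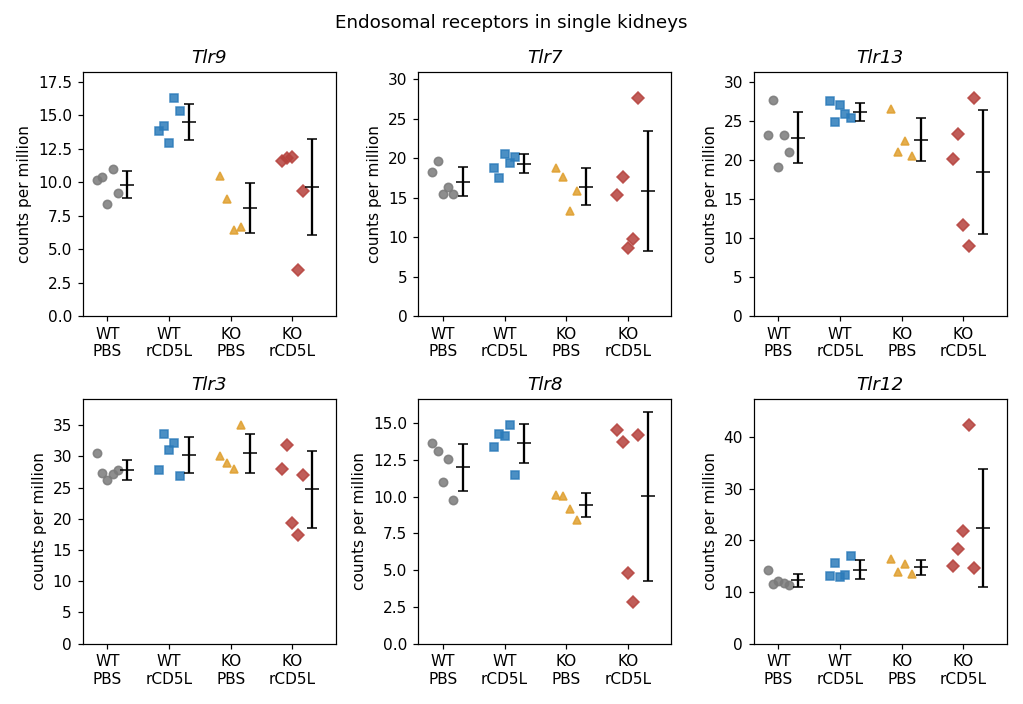
CPM of 6 endosomal receptors (vertical axes from 0) in each kidney of the 4 groups, with the mean ± SD beside the points. For Tlr9 the WT rCD5L kidneys, at 12.9 to 16.3 CPM, lie above all WT PBS kidneys, at 8.41 to 11.0 CPM, and above all CD5L KO kidneys, while for the other receptors the WT groups overlap.

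In CD5L KO mice, edgeR called none of the 50 genes and 0% of 17467 genes; DESeq2 called 3 genes, none of them among the 50. No gene of the 50 reached an unadjusted p under 0.05, against 2.87% of all genes, and none was without overlap, against 2.40% of all genes. The smallest p belonged to Ripk2, the kinase downstream of the NOD receptors, at 12.9, 14.1, 13.0 and 14.5 CPM in CD5L KO PBS and 14.0, 11.4, 9.59, 9.16 and 10.7 CPM in CD5L KO rCD5L kidneys (log2 fold change -0.31, SE 0.153, adjusted p = 0.897). The next by p were Tlr12 (log2 fold change 0.60, SE 0.298), the TRIF gene Ticam1 (0.39, SE 0.205), Tlr3 (-0.30, SE 0.184), Tlr1 (-0.45, SE 0.315), Tlr4 (-0.38, SE 0.282), Nfkbia (-0.29, SE 0.223) and Traf4 (0.19, SE 0.150). Each of these genes had adjusted p = 0.897, the smallest of all genes. Without CD5L KO rCD5L replicate 4 the log2 fold changes were -0.25 for Ripk2, 0.25 for Tlr12, 0.39 for Ticam1, -0.19 for Tlr3, -0.27 for Tlr1, -0.22 for Tlr4, -0.13 for Nfkbia and 0.12 for Traf4. Without replicates 3 and 4 all were closer to 0, with Ripk2 at -0.18, Tlr12 at 0.12, Ticam1 at 0.11, Tlr3 at -0.07, Tlr1 at -0.08, Tlr4 at -0.01, Nfkbia at -0.10 and Traf4 at -0.04. None was called in either. Proximal tubule markers had a median log2 fold change of 1.29 here and of 0.02 without replicate 4, and macrophage markers of -0.11 and 0.09. Without replicates 3 and 4 the proximal tubule median was -0.19, and all 10 macrophage markers were positive with a median of 0.10. The 3 urothelium markers were negative in each of these settings (medians -0.58, -0.44 and -0.30). No marker was called, and their part was not tested.

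The median SE of the 50 log2 fold changes was 0.220 in CD5L KO and 0.0739 in WT mice, so a difference of the size of Tlr9 in WT mice was measured with less precision in CD5L KO mice. Without CD5L KO rCD5L replicate 4 the median log2 fold change went from -0.02 to 0.06 and 31 of the 50 were positive, against 24 with it. In that setting 1 gene (2%) had an unadjusted p under 0.05, against 5.54% of all genes. Without replicates 3 and 4, 34 were positive with a median of 0.06 and none was called; 3 (6%) had an unadjusted p under 0.05, against 9.76% of all genes. Tlr9 shows the same spread: its CD5L KO PBS kidneys were at 10.5, 8.79, 6.47 and 6.69 CPM, and CD5L KO rCD5L replicates 1, 2, 3 and 5 at 11.6, 11.8, 11.9 and 9.36 CPM with replicate 4 at 3.48 CPM.

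Whether the effect of rCD5L differed between genotypes was tested as an interaction over all 19 kidneys. With edgeR none of the 50 genes and 0% of 18454 genes were called; DESeq2 called none either. Of the 50 genes 3 (6%) had an unadjusted p under 0.05, against 6.25% of all genes: Ripk2 (difference of log2 fold changes, CD5L KO minus WT, -0.37, SE 0.155, adjusted p = 0.731), Tlr3 (-0.42, SE 0.189, adjusted p = 0.731) and Tlr1 (-0.75, SE 0.339, adjusted p = 0.731). With CD5L KO rCD5L replicates 3 and 4 left out these were -0.25, -0.20 and -0.38, each with adjusted p = 0.965, and 2 of the 50 genes (4%, against 4.96%) had an unadjusted p under 0.05; without replicate 4 alone there were 4 (8%, against 4.97%). With other single kidneys left out the count ran from 1, for instance without CD5L KO PBS replicate 1 (2%, against 3.50%), to 6 (12%, against 10.1%) without CD5L KO rCD5L replicate 5. The median difference over the 50 genes was -0.09, against -0.01 without replicate 4 and -0.03 without replicates 3 and 4. Tlr9 was not among these 3 genes.

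The 45 other pathway genes and the NF-κB targets that passed the filter held no called gene by edgeR in any comparison of the full groups other than CD5L KO against WT given PBS, and neither did the marker lists. Among the pathway genes 5 had an unadjusted p under 0.05 in WT mice given rCD5L, 4 higher and 1 lower, which is 11.1%, and 7 of 36 target genes did (19.4%), 5 higher and 2 lower, against 16.0% of all genes. Given rCD5L, CD5L KO against WT held 5 of the 45 (11.1%) and 2 of 35 targets (5.71%) at that level, against 17.8% of all genes. In CD5L KO mice rCD5L against PBS held 1 of 45 (2.22%) and 1 of 37 (2.70%), against 2.87%.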

How the data were processed

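Whole-kidney RNA of 19 mice was sequenced on an Illumina NovaSeq instrument as paired reads after random hexamer priming. The authors deposited raw counts per gene and FPKM values, made with Trimmomatic, HISAT2 (GRCm38/mm10) and featureCounts according to the submitters' processing notes, which also name DESeq2; versions, strand setting and treatment of multiply mapped reads are not given in the sources used here. Library columns were matched to samples by the library names in the labels, and 0 columns were left without a sample.

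The counts were tested with edgeR 4.0.16 (R 4.3.3): TMM factors, genes kept by filterByExpr with a minimum count of 10, the quasi-likelihood test between the groups compared, two-sided, with Benjamini-Hochberg adjustment over all genes tested, and "called" at an adjusted p under 0.05. CPM values used TMM factors over all 19 kidneys. FPKM served for comparing genes with each other and, with limma 3.58.1 on log2(FPKM + 1) and log2(FPKM + 0.1) with genes above 0.1 FPKM in as many kidneys as the smaller group holds, as an alternative. Further alternatives were DESeq2 1.42.0, other factors and filters, 1 fit over all kidneys, a gene length offset from a lowess trend with span 0.3, the replicate number as a block, and leaving out single kidneys. The scripts were tested on simulated data.

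In each pairwise comparison the called genes and the 8 with the smallest p were named, in the interaction the 3 with the smallest p, and of other lists up to 5 called genes. Genes and lists were chosen with earlier results of these data known. The labels number the kidneys within each group, and p-values measure the spread between these kidneys only.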

Additional observations from a re-analysis of the deposited data

Results flagged for a closer look

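In 24 named genes and 4 groups, which makes 96 sets of kidneys, 4 single values lay farther from the rest of their group than Dixon's 95% critical value allows, a criterion that chance meets in about 1 of 20 sets. In the CD5L KO rCD5L kidneys, replicate 4 was highest for Tlr12, at 42.2 CPM with the nearest kidney at 21.8 CPM, and for Chuk, at 216 CPM with the nearest at 102 CPM. In WT PBS kidneys, replicate 1 was highest for Tlr12, at 14.3 CPM with the nearest at 12.2 CPM. In WT rCD5L kidneys, replicate 3 was lowest for Nfkb1, at 112 CPM with the nearest at 129 CPM.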

How the results depend on the processing

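For CD5L KO against WT given PBS, where 4 genes were called, the number was 6 with DESeq2 (with Irak3 and Tlr8), 0 in 1 fit over all 19 kidneys, 2 with the gene length offset (Lbp and Traf6), and from 2 to 4 when single kidneys were left out (4% to 8%, against 5.81% to 11.8% of all genes, and 4% against 7.42% with the offset); it was 2 without CD5L KO PBS replicate 1, 2 or 3 and without WT PBS replicate 2 or 4. For CD5L KO against WT given rCD5L, where none was called, it was 2 in 1 fit over all 19 kidneys and 2 without CD5L KO rCD5L replicates 3 and 4, an alternative chosen after seeing the data. For rCD5L in WT mice, where none was called, it was 1 with DESeq2, 1 without the filter on low counts (2%, against 0.430% of all genes) and from 0 to 1 when single kidneys were left out (2% without WT PBS replicate 1, against 0.222%), Tlr9 in each case (log2 fold change from 0.43 to 0.62 over 19 alternatives). No alternative called any of the 50 genes for rCD5L in CD5L KO mice or in the interaction. The cause of these changes was not tested. Of 692 values of the named genes under an alternative, 656 kept their direction and side of the threshold, 23 were no longer called, 12 became called and 1 changed sign, Traf4 for rCD5L in CD5L KO mice, at -0.036 without replicates 3 and 4. Over the alternatives the median of the 50 log2 fold changes ran from -0.08 to -0.02 for CD5L KO against WT given PBS, from -0.19 to -0.03 given rCD5L and from 0.05 to 0.10 for rCD5L in WT mice; for rCD5L in CD5L KO mice it ran across 0, from -0.10 to 0.06.

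The labels give the replicate numbers no shared source, and in no comparison did every same-numbered pair of kidneys deviate together with a correlation over 0.1: 3 of 4 pairs did for rCD5L in CD5L KO mice (0.03 to 0.25), 2 of 4 for CD5L KO against WT given PBS (-0.04 to 0.21) and none in the other 2, so the numbers were not taken as pairs. With the replicate block, 6 of the 50 genes were called for CD5L KO against WT given PBS (Bcl3, Ikbkb, Lbp, Nfkbiz, Tlr8 and Traf6), 12% against 12.1% of all genes, 4 with the block and the gene length offset (Chuk, Lbp, Tlr8 and Traf6), 8% against 8.45%, and 0 in each other comparison; the own number was the best match for 2 of 4 pairs in each of the first 2 comparisons named here and for none in the others.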
